A study of Mus musculus with 3 samples.

Results

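Of the 54532 genes in the deposited table, 8 were followed, each found by its exact gene name: Cd22, Cd33, Siglece, Lilrb4a, Ms4a6b, Ms4a6c, Ms4a6d and Ms4a7. They are receptors and membrane proteins of myeloid cells, which in the brain are mainly microglia. Hippocampal RNA came from 10-month-old mice on a C57BL/6 background, with 1 library for each of 3 genotypes. The groups were WT, PS19, and PS19 that had lost 1 of the Zbp1 alleles, written PS19 Zbp1+/- here. PS19 mice carry a mutant human tau transgene under the mouse Prnp promoter, so tau is made mainly in neurons, and Zbp1 encodes a sensor of left-handed nucleic acids. The labels give neither sex nor whether a library is 1 animal or a pool, and with 1 library a genotype no difference below has a replicate check or a p-value.

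Cd22, Cd33 and Siglece are Siglecs, receptors that bind sialic acid on the surface of other cells. Lilrb4a belongs to the leukocyte immunoglobulin-like receptors. Many members of both families, though not all, carry immunoreceptor tyrosine-based inhibitory motifs (ITIMs) in the cytoplasmic tail. Once phosphorylated, these recruit phosphatases such as Ptpn6 and Inpp5d and dampen activating receptors that signal through Tyrobp and Syk, among them Trem2. Protein sequences were not examined here, so which of these mouse genes encode the motif was not determined. Ms4a proteins cross the membrane with several helices, and the best known, Ms4a1 (CD20), marks B cells. Human CD33 and the human MS4A cluster lie at loci associated with Alzheimer's disease risk, which is why these genes are often read together in microglia.

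The genes lie on 3 chromosomes (GRCm38, as positioned in the table). Cd22 (ENSMUSG00000030577; chromosome 7, 30865402 to 30880342, minus strand) stands apart from Cd33 (ENSMUSG00000004609; chromosome 7, 43524216 to 43544428, minus strand) and Siglece (ENSMUSG00000030474; chromosome 7, 43651070 to 43660161, minus strand), which are 107 kb from each other. Lilrb4a (ENSMUSG00000112148) is on chromosome 10, 51490956 to 51496611, plus strand. The 4 Ms4a genes span 284 kb of chromosome 19: Ms4a7 (ENSMUSG00000024672; 11321039 to 11336146, minus), Ms4a6c (ENSMUSG00000079419; 11469366 to 11482192, plus), Ms4a6b (ENSMUSG00000024677; 11516512 to 11531256, plus) and Ms4a6d (ENSMUSG00000024679; 11586604 to 11604849, minus).

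Promoter sequence is shown because 7 of the 8 genes were highest in the same library, PS19. RefSeq start sites (GRCm38.p6) were given for 6 of the 8 genes, in 7 windows of 300 bases, 250 before and 50 after the start site. The Ets core GGAAGT, read by the myeloid factor Spi1 (PU.1) among others, was searched on both strands and lay in the windows of 4 genes, Cd33, Ms4a6b, Ms4a6c and Ms4a7. It is a short word that 23.8% of all 32851 windows of this length also hold. The bases before the start site that lie outside annotated exons are given 5′ to 3′ on the gene's strand, with GGAAGT or its complement ACTTCC in capitals.

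Cd33 (chr7:43533172-43533364, minus strand): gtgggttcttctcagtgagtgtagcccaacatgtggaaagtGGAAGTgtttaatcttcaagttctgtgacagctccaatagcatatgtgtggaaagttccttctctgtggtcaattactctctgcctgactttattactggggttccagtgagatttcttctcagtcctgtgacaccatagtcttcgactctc
Ms4a6c (chr19:11469118-11469365, plus strand): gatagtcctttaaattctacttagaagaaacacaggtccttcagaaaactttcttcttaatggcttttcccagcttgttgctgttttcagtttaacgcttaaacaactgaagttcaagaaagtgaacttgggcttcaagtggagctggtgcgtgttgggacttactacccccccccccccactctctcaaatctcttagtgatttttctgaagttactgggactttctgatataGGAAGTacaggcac
Ms4a7 (chr19:11336147-11336396, minus strand): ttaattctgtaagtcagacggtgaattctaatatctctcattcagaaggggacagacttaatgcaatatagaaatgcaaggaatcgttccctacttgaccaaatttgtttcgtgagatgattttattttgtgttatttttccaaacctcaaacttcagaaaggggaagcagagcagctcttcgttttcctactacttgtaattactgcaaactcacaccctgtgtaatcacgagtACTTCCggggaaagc

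The Cd33 match was 152 bases before its start site, and that of Ms4a7 15 bases before, on the opposite strand. Ms4a6b and Ms4a6c are tandem copies whose windows aligned over 202 bases at 89.6% identity, while no other pair of the 6 genes aligned over more than 16 bases. Their 30 bases around GGAAGT differed at 1 position. This match lay 16 bases before the start site of Ms4a6c and 85 before that of Ms4a6b. Each window held another on the opposite strand, 25 bases after the start site of Ms4a6c and 43 before that of Ms4a6b. In the Ms4a6b window, the longest stretch outside annotated exons ended 107 bases before the start site. Both Ms4a6b matches lay past that end, and that stretch is not shown above.

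Ms4a6b site (chr19:11518462-11518491, plus strand): ctttctgatataGGAAGTacaggcacaata
Ms4a6c site (chr19:11469340-11469369, plus strand): ctttctgatataGGAAGTacaggcacagta

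Of the other motifs searched on both strands, GAGGAAGT (a longer PU.1 word that contains GGAAGT; 3.20% of all windows), TTGCNNAA (C/EBP; 10.8%) and the word GAAA given again after 2 bases of any kind (the interferon-stimulated response element; 3.44%) matched none of the 7 windows. TGANTCA (the AP-1 element; 7.81%) matched 1, at the second start site of Ms4a7. A match or its absence describes these letters in this window and nothing about a factor.

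Depth and library differences touch every value that follows. Whole reads recovered from the table came to between 16400328 and 17109734 a library, and 21408 genes had reads in PS19 Zbp1+/- against 24741 in WT and 25397 in PS19. Zbp1 itself was read 5 times in WT and 91 times in PS19, and never in PS19 Zbp1+/-. The PS19 Zbp1+/- library had no read of Xist and 711 of the Y-linked Ddx3y, while WT and PS19 had 11062 and 13350 Xist reads and none of Ddx3y, so sex and genotype cannot be told apart in either comparison with it. Weak genes dropped out of that library more often: of 1580 protein-coding genes with 5 to 20 reads in WT, 20.5% had no read in PS19 Zbp1+/- (exact 95% interval 18.5% to 22.6%) against 3.29% in PS19 (2.47% to 4.29%). Less RNA per cell and fewer cells of a type cannot be told apart in bulk tissue.

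In PS19, all 8 genes had more reads than in WT, from 2.05-fold for Ms4a6b to 89.8-fold for Cd22, with a median of 4.44-fold. For 7 of the 8 the exact (Clopper-Pearson) 95% interval of the read ratio, which covers counting error only, lay above 1, Siglece being the exception. Read ratios are per library size implied by the table. Among 3541 protein-coding genes in the same range of mean FPKM (0.130 to 1.52) and with at least 10 reads in the pair, 19% were higher by 2-fold or more in PS19 by this measure and 6.61% lower. Of all 15366 genes with that many reads, 7.2% were higher and 2.36% lower. The median log2 read ratio of the genes in that range was 0.22, against 2.15 for the 8. FPKM scales reads to gene length and library size, and on the log2(FPKM + 1) scale, which shrinks the changes of weak genes, 3 of the 8 differed by at least 1 log2 unit, against 2.2% higher and 0.291% lower of the 12703 protein-coding genes that reached an FPKM of 1 in one library of the pair. Those 3, Cd22, Cd33 and Ms4a6d, are also the only ones of the 8 to reach an FPKM of 1, and they did so in PS19 alone. The others of the 8 could not differ by 1 log2 unit on this scale and are not among the 12703. The median difference on that scale was 0.67 for the 8 and -0.03 for all genes tested.

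**Figure D1:**
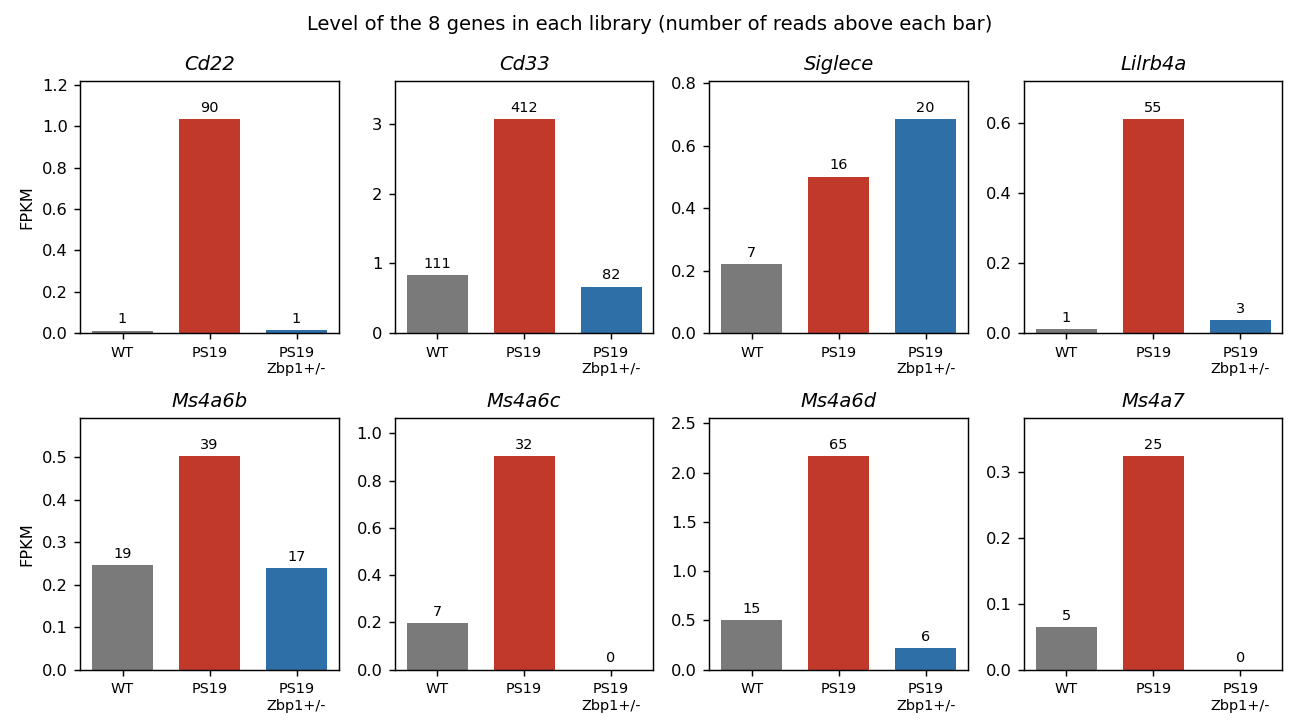
Level of each gene in FPKM (vertical axis, starting at 0, one scale per gene) in the single WT, PS19 and PS19 Zbp1+/- libraries, with the number of reads printed above each bar. PS19 is the highest bar for 7 genes, while Siglece is highest in PS19 Zbp1+/-.

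Of Cd22, Cd33 and Siglece, Cd33 had the most reads in every library, at FPKM 0.828 (WT), 3.07 (PS19) and 0.667 (PS19 Zbp1+/-). These levels rest on 111, 412 and 82 reads, the firmest counts of the 8. PS19 stood above both other libraries, which lay close to each other. PS19 was 3.70-fold above WT (95% interval 3 to 4.61), and PS19 Zbp1+/- was 4.60-fold below PS19 (3.62 to 5.90). On the log2(FPKM + 1) scale the differences were 1.15 and -1.29. PS19 Zbp1+/- over WT was 0.805 (0.598 to 1.08), an interval that holds 1.

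Cd22, best known as a brake on B cell receptor signalling and found on aged microglia, was close to absent outside PS19. WT and PS19 Zbp1+/- each had 1 read, at FPKM 0.0115 and 0.0125, and PS19 had 90 reads, at FPKM 1.03. The PS19 over WT ratio was 89.8, with an interval from 15.7 to 3587 that a single WT read leaves very wide. PS19 Zbp1+/- was 82.4-fold below PS19 (14.4 to 3290). Just past the 2-fold mark on the log2(FPKM + 1) scale, Cd22 differed by 1.01 and -1.01.

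Since Cd22 is also a B cell gene, B cell markers are set beside it. Ms4a1 had 0 reads in every library, and Cd79a had 6 (WT), 1 (PS19) and 12 (PS19 Zbp1+/-). The immunoglobulin genes were also highest in PS19: Igkc had 16, 314 and 4 reads and Ighm 295, 809 and 94. Summed over the 10 B cell markers, of which 3, 2 and 4 were at 0, the FPKM was 11.6 (WT), 60.5 (PS19) and 4.88 (PS19 Zbp1+/-). In PS19, Igkc and Ighm gave most of that sum, at FPKM 34.1 and 24.8. Between PS19 Zbp1+/- and PS19, 5 of the markers had at least 10 reads. Of these, 3 were lower by 2-fold or more and 2 higher. The part of immunoglobulin-bearing cells in the Cd22 value was not tested.

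Siglece, a receptor of microglia and other myeloid cells that binds sialic acid on neurons, was not highest in PS19, unlike the other 7 genes. Its reads numbered 7 (WT), 16 (PS19) and 20 (PS19 Zbp1+/-), or FPKM values of 0.219, 0.501 and 0.683. PS19 over WT was 2.28 (0.888 to 6.56) and the further step to PS19 Zbp1+/- was 1.37 (0.672 to 2.82), so neither step was beyond counting error. PS19 Zbp1+/- over WT was 3.11 (1.27 to 8.72), the one ratio of the 8 in that comparison whose interval lay above 1. The make-up of the 3 Siglecs differed by library: Cd33 gave 78.2% of their summed FPKM in WT and 66.7% in PS19, while in PS19 Zbp1+/- it gave 48.9% and Siglece 50.2%.

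Lilrb4a, an inhibitory receptor of activated myeloid cells, followed Cd22. It had 1, 55 and 3 reads, or FPKM values of 0.0111, 0.609 and 0.0363 in WT, PS19 and PS19 Zbp1+/-. The ratio was 54.9 for PS19 over WT (9.45 to 2207), and PS19 Zbp1+/- was 16.8-fold below PS19 (5.45 to 83.9). Its level is uncertain because of copies: 43.5% of the 50-base stretches in its longest transcript also occur in other genes, mainly the neighbouring Lilr4b and the read-through model Gm49339 that spans both. Lilr4b had 3, 21 and 2 reads, again highest in PS19, and Gm49339 had 0 reads in all 3 libraries.

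The other 7 genes shared far less sequence. Ms4a6c shared 11.3% of such stretches with other genes, Ms4a6b 3.28% and Ms4a6d 2.92%, in part with one another, and Cd22, Cd33, Siglece and Ms4a7 under 1%.

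**Figure D2:**
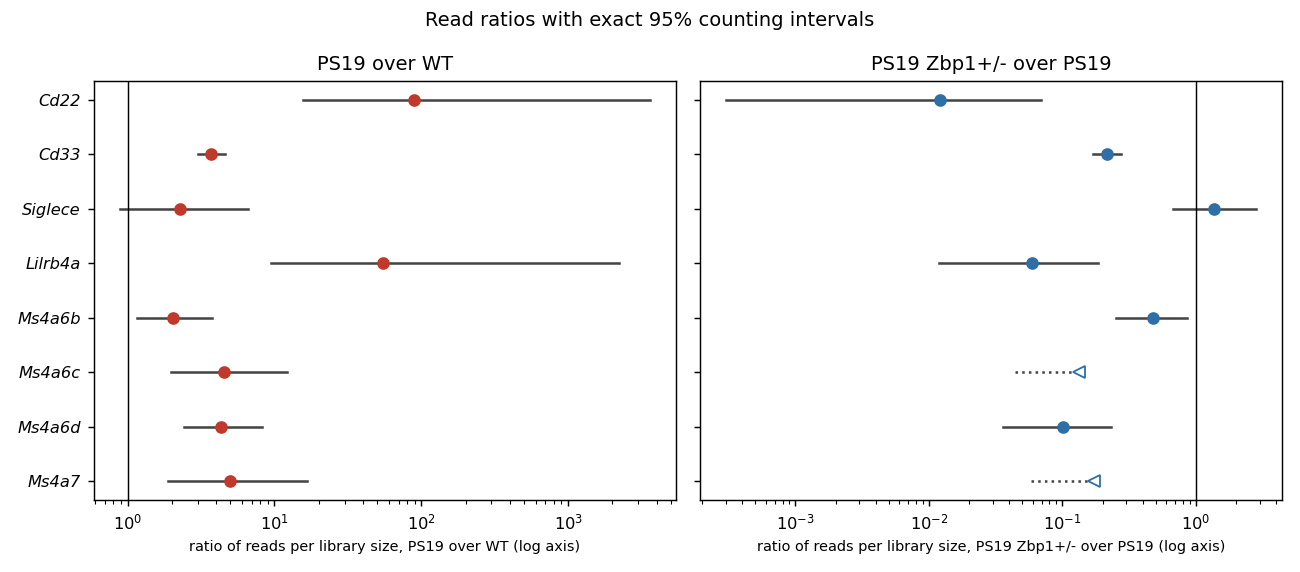
Ratio of reads per library size for each gene (log axis), PS19 over WT at left and PS19 Zbp1+/- over PS19 at right, with exact 95% counting intervals as lines. Open triangles with dotted lines are the upper limits for Ms4a6c and Ms4a7, which had 0 reads in PS19 Zbp1+/-, and only the Siglece intervals cross 1.

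Of the Ms4a6 genes, Ms4a6d was the highest in WT and PS19, at FPKM 0.501 (WT), 2.17 (PS19) and 0.219 (PS19 Zbp1+/-), from 15, 65 and 6 reads. PS19 was 4.32-fold above WT (2.44 to 8.17) and PS19 Zbp1+/- 9.92-fold below PS19 (4.32 to 28.0). On the log2(FPKM + 1) scale these were differences of 1.08 and -1.38, the second being the most negative of the 8 genes in that comparison. The ratio of PS19 Zbp1+/- to WT was 0.436 (0.139 to 1.19).

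Ms4a6b moved least of the 7 genes that peaked in PS19. It had 19, 39 and 17 reads, or FPKM values of 0.246, 0.503 and 0.239 in WT, PS19 and PS19 Zbp1+/-. The ratio was 2.05 for PS19 over WT (1.16 to 3.75) while PS19 Zbp1+/- stood at 0.476 of PS19 (0.253 to 0.862). The ratio of PS19 Zbp1+/- to WT was 0.975, with an interval (0.476 to 1.98) that allows a difference of about 2-fold either way.

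Ms4a6c, the tandem copy of Ms4a6b, was read 7 times in WT, 32 times in PS19 and never in PS19 Zbp1+/-, with FPKM values of 0.198 and 0.903 in the first 2. PS19 was 4.56-fold above WT (1.98 to 12.2), and PS19 Zbp1+/- was at least 7.49-fold lower than PS19 by the exact interval. Setting the count of 0 to 3 reads (an FPKM of 0.0925), without the error of the PS19 count, gave 9.77-fold. An antisense transcript, BE692007, overlaps 12027 bases of the gene and had 2, 19 and 0 reads. No strandedness is given in the sources used here, so the reads of the pair cannot be told apart.

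Ms4a7, which marks macrophages at the brain's borders and in the choroid plexus more than microglia, was the weakest of the 8 in PS19. It had 5, 25 and 0 reads, or FPKM values of 0.0651 in WT and 0.325 in PS19. PS19 was 4.99-fold above WT (1.88 to 16.7), and the level in PS19 Zbp1+/- was at least 5.76-fold lower by the exact interval. With the count of 0 set to 3 reads (an FPKM of 0.0426) it was 7.63-fold lower. Of 10 protein-coding genes with 5 to 7 reads in WT and 25 to 32 in PS19, the range of Ms4a6c and Ms4a7 and including both, 4 had no read in PS19 Zbp1+/- (40%, exact 95% interval 12.2% to 73.8%).

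Beside Ms4a7, border macrophage markers did not share one pattern between WT and PS19. Of the 10, 2 exceeded WT by 2-fold or more in PS19, and 0 fell by as much. In PS19 Zbp1+/- all 10 stood below PS19, as Ms4a7 did. Of the 8 with at least 10 reads in that pair, 7 dropped by 2-fold or more, with a median of 3.66-fold. The exception was Stab1, at a ratio of 0.819 (0.715 to 0.936). The scavenger receptors Stab1 and Colec12, which had the most reads, were counted at 379, 511 and 383 and at 193, 192 and 52 reads (WT first, PS19 Zbp1+/- last). The markers Mrc1, a mannose receptor, and Cd163, a haemoglobin scavenger receptor, were counted at 80, 119 and 6 and at 37, 95 and 8 reads in that order. Pf4, Lyve1 and F13a1 had fewer reads in PS19 (5, 12 and 39) than in WT (9, 23 and 47). Their PS19 over WT intervals all hold 1 (0.146 to 1.84, 0.236 to 1.09 and 0.527 to 1.29), so none of these falls was beyond counting error. The summed FPKM of the 10 border macrophage markers was 9.24, 11.2 and 3.87, with 1, 0 and 3 of them at 0. Choroid plexus markers were far lower in the last library: Ttr had 63846, 38820 and 136 reads, and all 10 were at least 2-fold lower than in PS19. Their ratios to PS19 ran from 0.00383 for Ttr to 0.165 for Kl. For PS19 over WT the median ratio of the plexus markers was 0.830. The part of plexus tissue in the Ms4a7 value was not tested.

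The rest of the Ms4a family was near silent. Of 15 other Ms4a genes in the table, 7 had no read in any library, Ms4a1 among them, and the 15 together had 14, 42 and 9 reads in that order, against 46, 161 and 23 for the 4 studied here. Ms4a4b, a T cell member of the family, had the most reads of them in PS19, with 3, 20 and 3 reads, 6.65-fold higher in PS19 than in WT (1.97 to 35). Ms4a4c had 4, 8 and 1 reads and Ms4a4a 6, 5 and 1, with intervals for PS19 over WT that hold 1. Per gene length Ms4a4a (FPKM 0.346) and Ms4a4c (0.264) stood above Ms4a4b (0.219) in PS19.

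**Figure D3:**
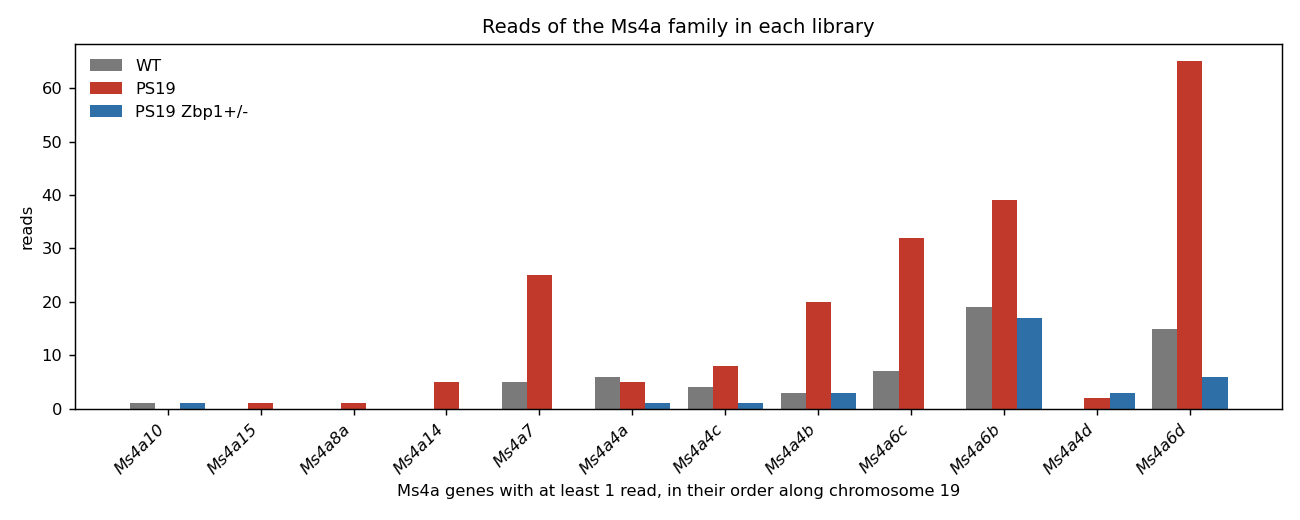
Reads (vertical axis, starting at 0) of the 12 Ms4a genes with at least 1 read, in chromosomal order, in the single WT, PS19 and PS19 Zbp1+/- libraries. The 4 genes described here, Ms4a7, Ms4a6c, Ms4a6b and Ms4a6d, hold most of the reads, with Ms4a6d at 65 in PS19.

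The order of levels per gene length in PS19 was Cd33, Ms4a6d, Cd22, Ms4a6c, Lilrb4a, Ms4a6b, Siglece and Ms4a7. Of the 7 neighbouring pairs in that order, 2 differed beyond counting error: Cd33 was 1.42-fold above Ms4a6d (1.09 to 1.87), and Ms4a6d was 2.10-fold above Cd22 (1.5 to 2.92). In WT none of the 7 neighbouring pairs differed beyond counting error, with Cd33 highest and Cd22 and Lilrb4a lowest. In PS19 Zbp1+/-, Siglece and Cd33 led at nearly one level (ratio 1.03, 0.595 to 1.69), and Cd33 was 2.78-fold above Ms4a6b (1.64 to 5.01).

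Between PS19 Zbp1+/- and PS19, 7 of the 8 genes were lower by 2-fold or more in read ratio, each with an interval below 1. In the same range of mean FPKM, 35.3% of 3489 protein-coding genes were lower by that much and 9% higher. Of all 15225 genes with at least 10 reads in the pair, 14.2% were lower and 4.78% higher. The median log2 read ratio, with reads set to at least 3, was -3.11 for the 8 and -0.49 for the genes in that range. Again only Cd22, Cd33 and Ms4a6d reached an FPKM of 1, in PS19 alone. On the log2(FPKM + 1) scale these 3 of the 8 were lower by at least 1 log2 unit. Of the 12772 genes tested, 5.16% were lower by that much and 2% higher. Of the genes past that mark 27.9% were higher, and 14.7% when libraries were scaled by total reads, which left the direction of all 8 genes as it was. The median difference on that scale was -0.78 for the 8 and 0.04 for all genes tested. This comparison shares the PS19 library with PS19 over WT, so the PS19 value enters both.

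Between PS19 Zbp1+/- and WT, none of the 8 reached an FPKM of 1 in either library. On the log2(FPKM + 1) scale none could therefore differ by 1 log2 unit. They are not among the 12436 genes tested there, of which 1.07% were higher and 2.28% lower by that much. Of the genes past that mark 32% were higher, and 17.3% when scaled by total reads. The median difference of the 8 was -0.05, against 0.01 for all genes tested. By read ratio, with reads set to at least 3, 1 gene (Siglece) was higher by 2-fold or more and 2 (Ms4a6c and Ms4a6d) were lower by as much. Ms4a6c had fewer than 10 reads in the pair, which leaves 1 higher and 1 lower of the 4 genes with that many. Of all 15072 genes with at least 10 reads in that pair 4.29% were higher and 8.82% lower, and in the same range of mean FPKM 10.8% and 24.3% of 3394. Counts were thin: Cd22, Lilrb4a, Ms4a6c and Ms4a7 had fewer than 10 reads over both libraries. The interval of the read ratio held 1 for 6 of the 8, lay above 1 for Siglece, and lay below 1 for Ms4a6c (0 against 7 reads, an upper limit of 0.756). For the other genes a difference was not detectable at this depth.

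Microglial genes were set beside the 8. Tmem119 and P2ry12, markers of resting microglia, had FPKM values of 11, 12.4 and 10.2 and of 11.2, 10.1 and 8.66 in WT, PS19 and PS19 Zbp1+/-. They were almost level between WT and PS19, with intervals that hold 1. Both were somewhat lower in PS19 Zbp1+/- than in PS19, at ratios of 0.822 (0.717 to 0.942) and 0.859 (0.744 to 0.990). Csf1r, the receptor microglia need to survive, and Cx3cr1, the fractalkine receptor, were 2.77-fold (2.61 to 2.94) and 5.41-fold (4.80 to 6.12) higher in PS19 than in WT. By read ratio, 9 of the 15 microglial markers were at least 2-fold higher in PS19 than in WT, with a median of 2.77-fold, and 10 of 15 were lower by as much in PS19 Zbp1+/- against PS19.

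Set against single microglial genes, the pattern depended on the gene chosen. Cd33 stood at 7.52%, 24.7% and 6.53% of the Tmem119 level in the same order. It stood at 4.70%, 6.29% and 2.90% of Csf1r, and fell from 20.3% to 13.9% and 6.19% of Cx3cr1. Against C1qa, a complement gene made by microglia, Cd33 was almost constant at 1.73%, 1.5% and 1.69%, and Ms4a6d stood at 1.04%, 1.06% and 0.555%. Cd22 was higher in PS19 against both Tmem119 and C1qa, at 0.104% of Tmem119 in WT and 8.31% in PS19, and 0.0240% and 0.504% of C1qa. Ms4a6b stood lower against C1qa in PS19, at 0.246%, than in WT (0.512%) or PS19 Zbp1+/- (0.608%).

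Of 6 other Siglecs, the 4 with at least 10 reads in the pair were higher in PS19 than in WT. Siglecf, a CD33-related Siglec known from eosinophils and activated microglia, had 6, 141 and 16 reads and was 23.5-fold higher in PS19 than in WT (10.5 to 65.0). Siglec1, a sialic acid receptor of border macrophages and interferon-exposed myeloid cells, had 17, 80 and 0 reads, 4.70-fold higher (2.76 to 8.46). Siglech, a microglial Siglec that signals through Tyrobp, had 188, 385 and 217 reads and was 2.04-fold higher (1.71 to 2.45). Mag, the myelin Siglec of oligodendrocytes, was 1.76-fold higher (1.68 to 1.83) with 3297, 5802 and 2065 reads. All 4 were lower in PS19 Zbp1+/- than in PS19, from a ratio of 0.616 for Siglech to 0 reads for Siglec1. Siglecg and Siglec15 had 2 reads or fewer in each library.

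Among 19 other inhibitory or paired receptors found in the table, 16 had at least 10 reads in WT and PS19 together. Of these, 11 were higher by 2-fold or more in PS19 and 1 (Pilra, 7 and 3 reads, ratio 0.428, interval 0.0714 to 1.87) lower, with a median of 4.02-fold. Fcgr2b, the inhibitory Fc receptor for immunoglobulin G, had 72, 525 and 20 reads, 7.28-fold higher in PS19 than in WT (5.68 to 9.44) and 24-fold below PS19 in PS19 Zbp1+/-. Vsir, an inhibitory ligand and receptor of microglia, was 2.51-fold higher (2.23 to 2.84). Sirpa, the receptor for CD47 that neurons also express, and Pecam1, an endothelial ITIM receptor, had ratios of 1.04 (1 to 1.07) and 1.05 (0.896 to 1.23).

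Partners of signalling through ITIMs and ITAMs, the activating counterpart, were also examined. By read ratio 14 of 18 were at least 2-fold higher in PS19 than in WT and none 2-fold lower, and 15 of 18 were lower by as much in PS19 Zbp1+/- against PS19. Trem2, an activating lipid receptor, had 206, 1066 and 229 reads, 5.16-fold higher (4.44 to 6.02). The broadly expressed Ptpn11 and Inppl1, a tyrosine and an inositol phosphatase, were 1.35-fold (1.29 to 1.41) and 1.48-fold (1.31 to 1.66) higher, and Csk, a kinase that restrains Src kinases, had a ratio of 1.06 (0.945 to 1.20). Ptpn6 and Inpp5d, chosen after their values were seen because they are the haematopoietic phosphatases that ITIMs recruit, had 54, 243 and 59 reads and 203, 645 and 224 reads. They were 4.49-fold (3.33 to 6.15) and 3.17-fold (2.70 to 3.73) higher in PS19 than in WT.

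Most enzymes that build, transfer or remove sialic acid, the ligand of Siglecs, moved little. Of 23, 2 exceeded WT by 2-fold or more in PS19 and 1 was lower by as much, with a median ratio of 1.07. On the log2(FPKM + 1) scale none differed by 1 log2 unit in any comparison. The 2 higher were St8sia6 (103, 236 and 63 reads) and Cmah (1, 15 and 1), and the 1 lower was Neu2 (22, 11 and 11). The Cmah interval was very wide (2.30 to 630) and that of Neu2 held 1 (0.218 to 1.07). In PS19 Zbp1+/- against PS19, 3 of the 23 were at least 2-fold lower and none was higher by as much. St8sia6 was 2.29-fold higher in PS19 than in WT (1.81 to 2.91) and 3.43-fold below PS19 in PS19 Zbp1+/- (2.59 to 4.60). St3gal2, which adds sialic acid to glycolipids and glycoproteins, had 1902, 1836 and 2719 reads, and its ratio was 0.963 for PS19 over WT (0.903 to 1.03) while PS19 Zbp1+/- stood at 1.62 of PS19 (1.52 to 1.72). St3gal5, the ganglioside GM3 synthase, St8sia3, which adds sialic acid to sialic acid, and Cmas, which activates it, had PS19 over WT ratios of 0.854, 0.769 and 0.799.

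**Figure D4:**
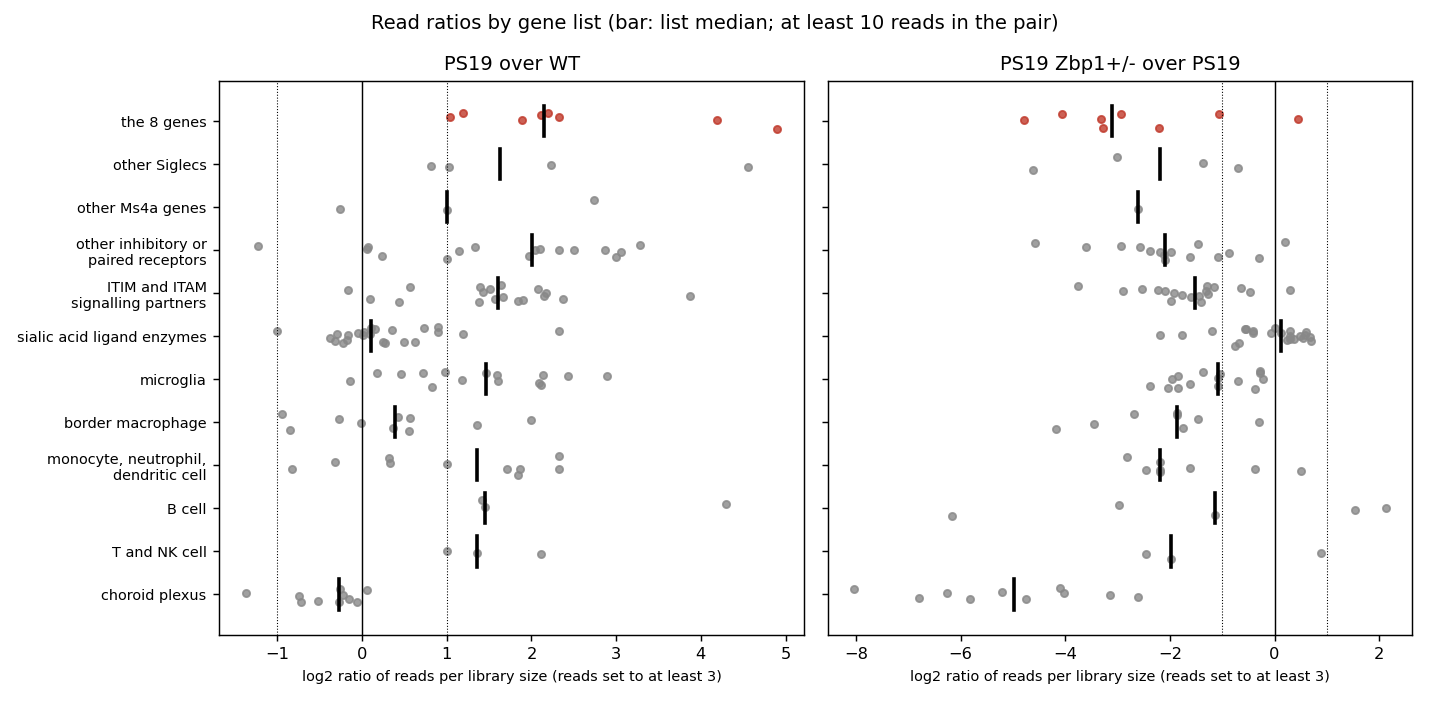
Log2 ratio of reads per library size (reads set to at least 3) for each gene with at least 10 reads in the pair, by gene list, PS19 over WT at left and PS19 Zbp1+/- over PS19 at right. Points are genes, thick bars list medians and dotted lines 2-fold; the 8 genes are in red, with medians of 2.15 and -3.11.

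Markers of blood-borne cells were few but were in part also highest in PS19. T and NK cell markers summed to an FPKM of 0.815, 2.37 and 0.266 in WT, PS19 and PS19 Zbp1+/-, with 3, 0 and 9 of the 10 at 0 reads. The only one read in PS19 Zbp1+/- was Cd4, which was highest there, with 5, 10 and 17 reads. Monocyte, neutrophil and dendritic cell markers summed to 7.83, 19.6 and 5.75, with 2, 1 and 8 of the 13 at 0. Ccr2, which marks monocytes, had 4, 8 and 0 reads, the neutrophil marker Ly6g 0 in each, and Csf3r, which microglia also express, 160, 586 and 117. Their part in the values of the 8 genes was not tested.

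The genes most like the median of the 8, by distance in the pair of log2(FPKM + 1) differences among 12273 protein-coding genes with a mean FPKM of at least 1, were Ephb1, Sox9, Acer2, Arap1 and P3h2, at distances of 0.015 to 0.023 log2 units over the 3 libraries. Sox9, for example, had FPKM values of 9, 15 and 8.39. With 3 libraries such likeness rests on 2 numbers, and the 8 genes' own differences are compressed by their low levels.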

How the data were processed

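RNA was sequenced from the hippocampus of 3 mouse genotypes, with 1 library each. Per the labels' protocols, extraction used TRIzol and library preparation the NEB Next Ultra RNA kit. The submitters' processing notes name Trim Galore 0.6.5, STAR 2.5.3a, featureCounts 2.0.4 and the build mm39. Gene positions in the deposited table nonetheless equalled GENCODE M21 (GRCm38) for 98.3% of 54495 matched gene IDs and for all 8 genes described, so positions are given on GRCm38. The counting of reads in overlapping genes or from either strand is not given in the sources used here.

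The authors deposited FPKM values, 1 column per library, with each gene's length. FPKM times length was a whole multiple of 1 step for 100% of values (tolerance 0.001 reads), which gave whole reads and an implied library size of 17253500, 17288000 and 15827000 reads for WT, PS19 and PS19 Zbp1+/-, the last below its 17109734 recovered reads. Levels were compared as differences of log2(FPKM + 1) and as ratios of reads per implied library size with exact 95% intervals, which cover counting error only (PCR copies carry no molecular identifier, so reads need not be separate molecules). A count of 0 was set to 3 reads for bounds. No count test was run, because each genotype has 1 library. The procedure was tested on simulated data.

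The 8 genes, the lists and the search words were chosen with earlier results of these data known. Named from each list were up to 4 genes with the most reads and a known role, with Cx3cr1, P2ry12, Tmem119 and Csf1r for microglia, Ttr for choroid plexus and Zbp1. C1qa, Pilra, Siglecg, Siglec15, Lilr4b and the markers named beside a gene for their low or absent reads were added after their values were seen. So were St8sia6, Cmah, Neu2 and Cd4. Lilrb4b of the list is Lilr4b in the table. Promoter windows and start sites are RefSeq's (GRCm38.p6), and shared 50-base stretches were sought in GENCODE M21 transcripts. The alternatives tried were pseudocounts, scalings, thresholds, read ratios and filters. Tools were pandas 2.3.3, scipy 1.17.1, numpy 2.4.6 and, for plots, matplotlib 3.10.9, under Python 3.11.15.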

Additional observations from a re-analysis of the deposited data

How the results depend on the processing

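The direction of the 8 genes between PS19 and WT, and between PS19 Zbp1+/- and PS19, did not turn with total reads or TPM. Only these scalings could turn it. Pseudocounts and thresholds cannot change the sign of a difference, and read ratios use the same implied library sizes as FPKM. Only Cd22 between PS19 Zbp1+/- and WT changed sign, from 0.0015 to -0.00036 log2 units with total reads and -0.0013 with TPM.

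How many genes passed 2-fold depended on the scale. The count higher in PS19 than in WT, 3 on log2(FPKM + 1), was 6 with a pseudocount of 0.1, 5 with 0.5, with TPM or at 1.5-fold, 0 at 4-fold and 8 by read ratio. Their median of 0.67 became 1.76, 1.06, 1.56 (TPM) and 2.15 (read ratio). The count lower in PS19 Zbp1+/- than in PS19, 3, was 6 with a pseudocount of 0.1 or with TPM, 5 with 0.5 or at 1.5-fold, 0 at 4-fold and 7 by read ratio. Its median of -0.78 became -2.23 (0.1), -1.27 (0.5), -0.82 (total reads), -1.83 (TPM) and -3.11 (read ratio). Between PS19 Zbp1+/- and WT, 0 of the 8 genes were called either way, and none could be, as none reached an FPKM of 1. With a pseudocount of 0.1, 1 was higher and 1 lower, and by read ratio 1 was higher and 2 lower. That median of -0.05 became -0.15 (0.1), -0.20 (TPM) and -0.17 (read ratio). The counts of read ratios over all genes, with at least 10 reads or in the same range of mean FPKM, were added after seeing the data. A larger pseudocount by construction shrinks weak genes, and other causes were not tested.

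Over all genes, the count called on log2 FPKM or TPM values, across pseudocounts, scalings, thresholds and filters, ran from 37 to 806 higher and 2 to 344 lower in PS19 against WT (280 and 37 as reported), from 10 to 1197 and 104 to 1544 in PS19 Zbp1+/- against PS19 (255 and 659), and from 7 to 834 and 53 to 886 in PS19 Zbp1+/- against WT (133 and 283). By read ratio, among genes with at least 10 reads in the pair, the counts were 1106 and 362, 728 and 2156, and 646 and 1330. Scaling shifted the median of all genes between PS19 Zbp1+/- and PS19 from 0.04 to -0.12 (total reads) and -0.23 (TPM), and the share higher among called genes from 27.9% to 14.7% and 11.1%. Against WT that share went from 32% to 17.3% and 19%. No paired analysis was possible because each genotype has 1 library and the labels give no replicate numbers. For the same reason no library could be left out.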
